A study of Mus musculus with 2 samples.

Results

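Complement is a set of plasma and tissue proteins that tag microbes, immune complexes and dying cells and that recruit leukocytes. In the classical pathway, C1q binds a target and activates the proteases C1r and C1s, which cleave C4 and C2, and the resulting convertase cleaves C3. C1 inhibitor stops C1r and C1s, and the C3a receptor senses the small fragment released from C3. Much circulating complement is made by the liver, whereas tissue macrophages are a known source of C1q and fibroblasts of C1r and C1s.

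Transcripts of 9 complement genes were followed across the cells of mouse periodontal ligament, the tissue that joins the tooth root to the alveolar bone. The genes were taken by symbol from the 32285 genes of the count tables, and all 9 were found. They were C1qa, C1qb and C1qc, which encode the chains of C1q; C1ra and C1s1, which encode C1r and C1s; Serping1, which encodes C1 inhibitor; C3; C4b; and C3ar1, which encodes the C3a receptor. The OTM library came from the side on which the left upper first molar of male C57BL/6J mice, 8 weeks old, had been pulled forward for 6 days with a force of 10 g (orthodontic tooth movement). The control library came from the unloaded right side. Tissue of 5 mice was pooled for each library after collagenase and trypsin digestion, so the unloaded side is not the ligament of an untreated animal, and no spread between mice could be measured. With 1 library per group no test was made. Each difference described here separates 2 libraries, and its 95% interval covers counting error only, not the variation between cells or mice.

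After filtering, 1412 OTM cells with a median of 19583 unique molecular identifiers (UMIs, counted molecules) and 348 control cells with a median of 14877 UMIs remained, and the libraries shared 0 barcodes. Cells were clustered without the complement genes and named from marker transcripts. Macrophage or monocyte-like cells numbered 80 in OTM and 35 in control, stromal cells 691 and 159, and neutrophil-like cells 148 and 33. Stromal cells comprised the mural-like, osteoblast lineage-like and fibroblast-like clusters and a cluster led by Pcp4 and Wif1. This last cluster, c10, scored highest for a list for dental pulp that held Pcp4 and Wif1 themselves, and it is called here by its leading genes. The odontoblast gene Dspp was detected in OTM stroma and was at 0 UMIs in control stroma. This covers all stromal clusters together and does not bear on the identity of c10. Cluster c10 held 14.6% of stromal cells in OTM and 56.6% in control. In contrast, 2 clusters, c11 (led by Ccn5 and Mmp13, 142 cells) and c5 (led by Top2a and other cell cycle genes, 26 cells), held no control cell. Levels are given as CPM, the counts-per-million scaling of a gene's UMIs by all UMIs of a class. The library sequences only the 3′ ends of transcripts, so counts are not scaled by gene length.

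The 3 C1q genes lay side by side on the minus strand of chromosome 4 (GRCm38, positions 136880129 to 136898803), within 18.7 kb. C1ra (chromosome 6, 124512405 to 124523443, plus strand) and C1s1 (chromosome 6, 124530345 to 124542359, minus strand) were 6.9 kb apart, tail to tail. C3 lay on chromosome 17 (57203970 to 57228136, minus strand), C4b on chromosome 17 (34728380 to 34743882, minus strand), Serping1 on chromosome 2 (84765387 to 84775444, minus strand) and C3ar1 on chromosome 6 (122847138 to 122856161, minus strand). RefSeq promoters (GRCm38.p6) were matched for 6 of the 9 genes. The 250 bases before the transcript start are shown for 1 gene of each main pattern of expression described below: C1qb (macrophage-like cells, chr4:136886201-136886450, minus strand), C1s1 (stromal cells, chr6:124542360-124542609, minus strand) and C3 (neutrophil-like cells and monocyte-like cells, chr17:57228137-57228386, minus strand). Capitals mark a match, on either strand, to an Ets core (GAGGAA, the kind of site bound by the myeloid factor PU.1) or to a C/EBP-type sequence (TTGCNNAA).

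C1qb: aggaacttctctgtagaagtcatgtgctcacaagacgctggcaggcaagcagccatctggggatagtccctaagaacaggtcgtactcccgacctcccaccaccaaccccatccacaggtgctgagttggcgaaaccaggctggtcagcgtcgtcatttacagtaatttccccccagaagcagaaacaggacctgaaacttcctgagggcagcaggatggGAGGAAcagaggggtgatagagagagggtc
C1s1: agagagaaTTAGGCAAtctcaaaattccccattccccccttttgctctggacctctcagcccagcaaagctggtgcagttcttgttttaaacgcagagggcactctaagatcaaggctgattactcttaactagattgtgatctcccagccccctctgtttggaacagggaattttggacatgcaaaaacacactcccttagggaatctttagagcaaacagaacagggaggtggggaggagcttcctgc
C3: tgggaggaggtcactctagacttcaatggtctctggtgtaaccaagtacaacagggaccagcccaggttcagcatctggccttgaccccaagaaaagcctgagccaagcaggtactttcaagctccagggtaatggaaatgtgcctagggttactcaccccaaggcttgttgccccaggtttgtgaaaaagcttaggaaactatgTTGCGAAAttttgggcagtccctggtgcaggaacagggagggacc

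The Ets core in C1qb lay 30 to 25 bases before the start, and 23.3% of 32851 promoters of this length held one. The C/EBP-type match in C3 lay 45 to 38 bases before the start, and that in C1s1 242 to 235 bases before it, on the opposite strand. Of all promoters, 9.56% held one. None of the 3 printed sequences held a STAT-type palindrome (TTCNNNGAA, in 7.02% of promoters) or a TATAAA (12.4%). RefSeq also gave another C1s1 promoter (chr6:124542322-124542571), whose 250 bases held no match. Among the matched genes not printed, C1ra held no match, C1qc an Ets core and C3ar1 a TATAAA. These are matches of letters, and binding was not measured.

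Of the 9 genes, the 8 that could be compared in both libraries lay on the same side of the 2 compartments in each. C1q and C3ar1 transcripts were in macrophage or monocyte-like cells, C1ra, C1s1 and Serping1 were in stromal cells, and most C3 was in neither, with its highest levels in neutrophil-like, granulocyte and monocyte-like cells. In OTM all 9 genes differed by more than 2-fold between stromal and macrophage or monocyte-like cells, with 3 genes higher in stroma (23.6% of 14483 genes tested were) and 6 lower (14.3%). In control, 8 genes had the 20 UMIs needed in 1 of the classes, and 3 were higher in stroma (28.5% of 10965 genes) and 5 lower (13.8%).

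**Figure D1:**
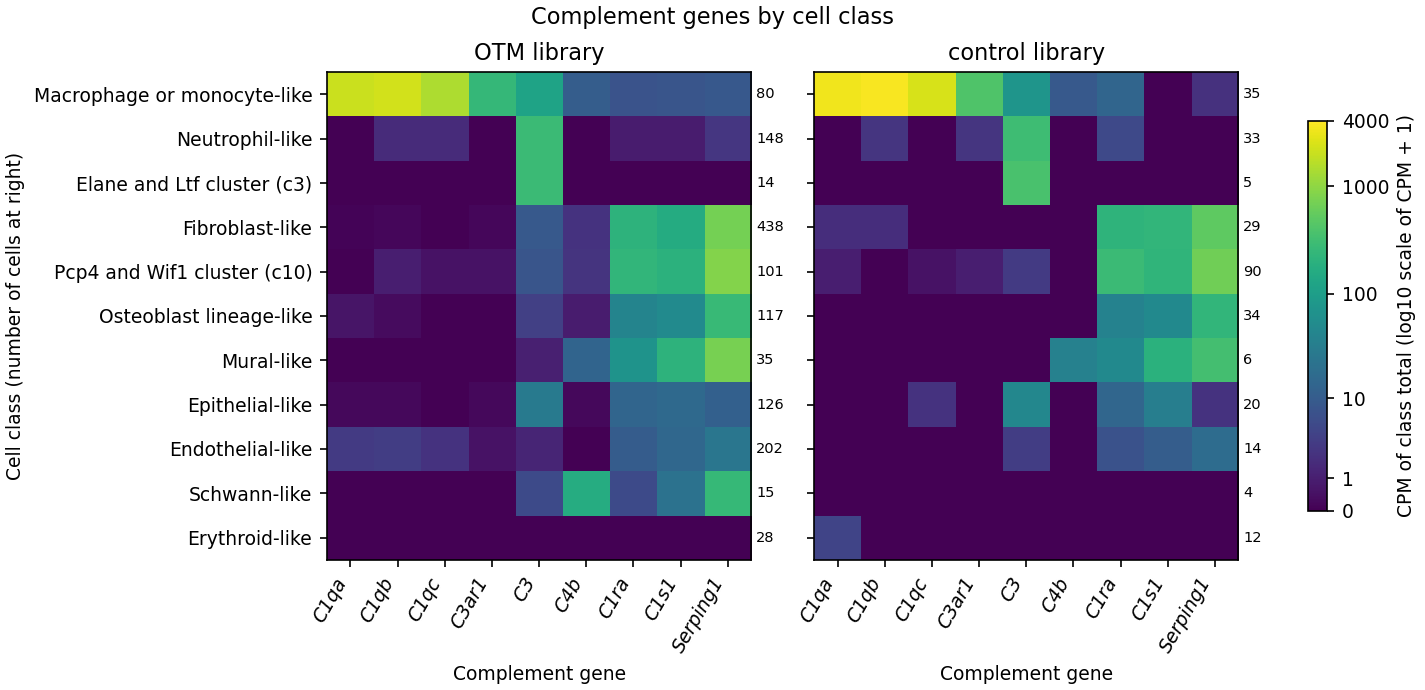
Level of each complement gene (columns) in 11 cell classes (rows) in the OTM library (left) and the control library (right), as CPM of the class total on a log10 colour scale of CPM + 1, with the number of cells at the right of each row. C1q is brightest in the macrophage or monocyte-like row, Serping1, C1ra and C1s1 in the stromal rows, and C3 in the neutrophil-like row and in the cluster led by Elane and Ltf.

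C1q transcripts were almost confined to one class. The macrophage or monocyte-like class held 8590 of 8772 C1q UMIs in OTM (97.9%) and 4115 of 4126 in control (99.7%), while making up 5.67% and 10.1% of the cells. Stromal cells had 9 C1q UMIs in OTM, in 1.16% of the cells, and 5 UMIs in control, in 3.14%. Neutrophil-like, epithelial-like, T or NK-like, B-like and erythroid-like cells as one group, which should not make C1q, had a C1q UMI in 1.74% of 345 OTM cells and 3.90% of 77 control cells (median depths of 9397 and 12365 UMIs per cell, against 21823 and 19002 in stroma). The stromal shares were below these, so stromal C1q was at background. On the log2 scale the stromal over macrophage or monocyte-like ratio of the C1q sum was -13.48 in OTM (95% interval of the log2 ratio -14.61 to -12.55) and -12.67 in control (-14.30 to -11.45). Outside these classes, 106 C1q UMIs in OTM lay in a cluster led by Mpo, Prtn3 and H2-Aa, 98 of them in 1 cell, and 52 lay in 3 endothelial-like cells, 45 of them in 1 cell.

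Within macrophage or monocyte-like cells, all 3 chains were lower in OTM than in control and by nearly the same amount. C1qa had 2032 CPM in OTM and 3363 CPM in control (log2 ratio -0.73, -0.82 to -0.64). C1qb had 2263 CPM in OTM and 3703 CPM in control (-0.71, -0.80 to -0.62), and C1qc had 1430.4 CPM in OTM and 2405 CPM in control (-0.75, -0.86 to -0.64). Their sum was 5726 CPM in OTM and 9471 CPM in control (-0.73, -0.78 to -0.67). Over the 7389 genes tested in this class the median log2 ratio was 0.26. No chain reached 2-fold. Of the 5 complement genes tested here, 0 were more than 2-fold higher in OTM (19.5% of all genes tested were) and 0 were more than 2-fold lower (6.08%). With cells clustered at 0.5 times the resolution, which placed 65 OTM and 33 control cells in the class, the C1q log2 ratio was -1.47. At that resolution 4 complement genes were more than 2-fold lower and 2 were more than 2-fold higher. The share of all genes past 2-fold was not computed there, so these counts have no background.

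In the whole libraries, where fewer macrophages and less C1q RNA per macrophage cannot be told apart, the C1q sum was 247 CPM in OTM and 738 CPM in control (log2 ratio -1.58, -1.63 to -1.52). The larger difference went with the smaller share of macrophage or monocyte-like cells in OTM. The whole-library log2 ratio was -1.47 for C3ar1, -0.51 for C1ra, -0.51 for C1s1, 0.03 for Serping1, -0.58 for C3 and 1.40 for C4b.

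The cells of this class were not alike. A cluster led by F10, Ccr2 and Ly6c2 (m1), genes of circulating monocytes, had 0 C1q UMIs in 19 OTM cells and 0 in 4 control cells, which allows a share of cells with a C1q UMI of up to 17.6% in OTM and 60.2% in control (exact Clopper-Pearson limits). Cluster m6, led by Mrc1 and Fcrls, genes of resident macrophages, had 10861 CPM of C1q in OTM and 12317 CPM in control (13 and 15 cells; log2 ratio -0.18, -0.29 to -0.08). Cluster m3, led by Ccl7 and Ccl12, had 6815 CPM in OTM and 10767 CPM in control (16 and 13 cells; -0.66, -0.75 to -0.57). Cluster m0, led by Lyz1, Ctss and Trem2, went the other way in its summed UMIs. It had 6891 CPM in OTM and 1456 CPM in control (32 and 3 cells, log2 ratio 2.24, 1.78 to 2.75). Its 3 control cells had a median of only 2229 UMIs, and 1 of them, with 21211 UMIs and 0 C1q UMIs, set this ratio. The remaining control cells had 6729 and 11134 CPM. By median cell m0 was lower in OTM, with 2473 CPM in OTM and 6729 CPM in control.

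The clusters also took unequal shares of the class. m0 held 32 of 80 OTM cells and 3 of 35 control cells, and m6 held 16.2% of OTM cells and 42.9% of control cells. Without m1 the C1q log2 ratio was -0.58 (7232 CPM in OTM, 10795 CPM in control). All 3 chains were detected together in 40 of 80 OTM cells (50.0%, 38.6 to 61.4) and in 26 of 35 control cells (74.3%, 56.7 to 87.5). Partial detection was rare, with 7 OTM and 2 control cells holding some chains but not all. A few cells carried much of the signal: the 5 richest cells held 38.6% of C1q UMIs in OTM and 37.3% in control. Fibroblast marker transcripts in this class summed to 1945 CPM in OTM (22 of 22 markers detected, the most abundant being Col1a1) and 433 CPM in control (17 of 22), and their part in the lower C1q level was not tested.

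**Figure D2:**
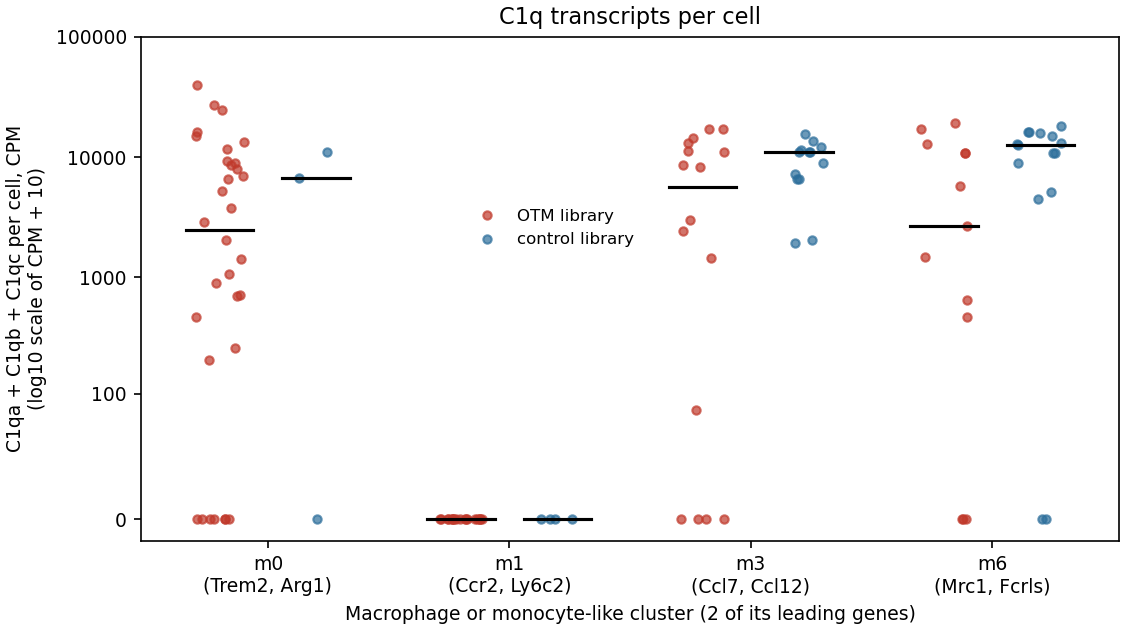
Summed C1qa, C1qb and C1qc of each cell, as CPM of the cell's UMIs on a log10 scale of CPM + 10, in the 4 macrophage or monocyte-like clusters, with OTM (red) left of control (blue) and a black line at the median. All m1 cells sit at 0 in both libraries, and in m6 the median is 2705 CPM in OTM and 12605 CPM in control. The median depth of m6 cells is 6654 UMIs in OTM and 11781 in control.

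The per-cell values showed the spread that the class sums hide. In m3 the median cell had 5693 CPM in OTM, with 4 of 16 cells at 0, and 11037 CPM in control, with 0 of 13 cells at 0. In m6 the median was 2705 CPM in OTM and 12605 CPM in control, while the highest cells reached 19122 and 18284 CPM. The m6 cells differed in depth, with a median of 6654 UMIs in OTM and 11781 in control. Those at 0 had 1343, 2078 and 2940 UMIs in OTM and 1609 and 2293 in control. The part of depth in the m6 medians was not tested. The ranges of the libraries overlapped in m0, m3 and m6.

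C3ar1 was found mostly in the same class as C1q. Macrophage or monocyte-like cells held 90.1% of its 416 OTM UMIs and 97.3% of its 182 control UMIs. The level was 249.95 CPM in OTM and 407 CPM in control (log2 ratio -0.70, -0.97 to -0.44), a difference of the size seen for C1q. By cluster it was 305 CPM in OTM (228 UMIs) and 0 UMIs in the 3 control cells in m0, at least 2.59-fold higher in OTM against the floor of 3 UMIs over the cluster. It was 262 CPM in OTM and 469 CPM in control in m3, and 461 CPM in OTM and 532 CPM in control in m6. In m1 it was 32.0 CPM in OTM, all from 1 cell, and 0 in control. Osteoclast-like cells, found only in OTM (22 cells), had 16.9 CPM of C3ar1 (16 UMIs in 10 cells) and 9.51 CPM of C1q. In stromal cells C3ar1 had 3 UMIs in OTM and 2 in control. The log2 ratio of stromal over macrophage or monocyte-like cells was -10.54 in OTM (-12.83 to -8.99) and -9.46 in control (-12.51 to -7.58).

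C1ra, C1s1 and Serping1 were stromal in both libraries. Stromal cells held 95.1% of C1ra UMIs in OTM and 97.5% in control, 92.8% and 97.4% of C1s1 UMIs, and 97.0% and 99.6% of Serping1 UMIs. Relative to macrophage or monocyte-like cells, C1ra was higher in stroma by 4.57 on the log2 scale in OTM (3.72 to 5.57) and by 3.91 in control (2.78 to 5.36). Serping1 was higher by 6.19 in OTM (5.41 to 7.10) and, against a single macrophage UMI, by 7.82 in control (5.34 to 13.12). C1s1 was higher by 4.23 in OTM (3.42 to 5.18) and at least 26.5-fold higher in control, where no macrophage or monocyte-like cell had a UMI and a floor of 3 UMIs over the class was used. In OTM all 12 C1s1 UMIs of this class, 9 of them in 1 cell, and 12 of its 13 Serping1 UMIs were in m3; the fibroblast markers in the class are given above, and their part in these counts was not tested. Reads of C1ra and C1s1 may have been shared with the close copies C1rb and C1s2, so their levels are uncertain to that extent.

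Between libraries the 3 genes differed little in the stroma as a whole. Serping1 had 632 CPM in OTM and 519.8 CPM in control (log2 ratio 0.28, 0.21 to 0.35). C1ra had 174 CPM in OTM and 208 CPM in control (-0.26, -0.38 to -0.14), and C1s1 had 149.7 CPM in OTM and 183 CPM in control (-0.29, -0.41 to -0.16). The inhibitor was thus higher in OTM and its target proteases lower, each by less than 2-fold. Serping1 had at least 1 UMI in 649 of 691 OTM (93.9%) and 151 of 159 control stromal cells, C1ra in 81.6% and 78.6%, and C1s1 in 80.8% and 83.0%. With every cell thinned to 1500 UMIs these shares were 52.1% in OTM and 47.4% in control for Serping1, 24.96% and 23.7% for C1ra, and 22.5% and 23.7% for C1s1. In neutrophil-like cells, which should lack them, the unthinned shares were 1.35% in OTM and 0 of 33 control cells for Serping1, which allows a share of up to 10.6% by the exact Clopper-Pearson limit, and 0.676% and 6.06% for C1ra. All 3 transcripts were detected together in 498 of 691 OTM cells (72.1%) and 116 of 159 control cells (73.0%).

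These whole-stroma ratios depended on the cluster led by Pcp4 and Wif1. Without it, the log2 ratio was 0.85 for Serping1 (0.72 to 0.98), 0.69 for C1ra (0.46 to 0.94) and 0.22 for C1s1 (0.00 to 0.45), so the direction of both proteases turned. The stroma left, 590 OTM and 69 control cells, also differed in make-up. Its osteoblast lineage-like clusters c7 and c8 held 61 and 56 cells in OTM and 12 and 22 in control, and c11 and c5 had OTM cells only. The part of this make-up in the turn was not tested. Inside c10 Serping1 had 848 CPM in OTM and 658 CPM in control (0.37, 0.26 to 0.47), whereas C1ra had 230.5 CPM in OTM and 286 CPM in control (-0.31, -0.49 to -0.13). In the fibroblast-like cluster c1, led by Aspn and Postn, Serping1 had 744 CPM in OTM and 506 CPM in control (0.56, 0.38 to 0.74), and C1ra had 219.8 CPM in OTM and 223 CPM in control (-0.02, -0.30 to 0.27). C1s1 there had 194 CPM in OTM and 236 CPM in control (-0.29, -0.56 to -0.01).

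The osteoblast lineage-like cells stood below the other stromal cells for all 3 genes. Serping1 was 263 CPM there in OTM and 238 CPM in control, C1ra 41.9 CPM and 38.5 CPM, and C1s1 52.2 CPM and 49.8 CPM. The pooled values hid a cluster that was lower in OTM, c7, led by Ibsp, Spp1 and Thbs4. Its leading genes also included Tnmd, from the fibroblast marker list. It scored 0.79 for the osteoblast list, against 1.76 for c8, so its name is less certain. In c7 C1s1 had 61.8 CPM in OTM and 122 CPM in control (-0.98, -1.75 to -0.12). C1ra had 54.4 CPM in OTM and 99.4 CPM in control (-0.87, -1.72 to 0.10). C1ra and C1s1 were lowest in c8, led by the mature osteoblast and osteocyte genes Bglap and Dmp1, with 30.4 CPM of C1ra in OTM and 27.9 CPM in control, and 43.4 CPM of C1s1 in OTM and 37.2 CPM in control. Mural-like cells combined a low C1ra (68.8 CPM in OTM, 49.7 CPM in control) with a C1s1 level near that of fibroblast-like cells (212 CPM in OTM, 199 CPM in control). Their Serping1 was 724 CPM in OTM and 336 CPM in control (log2 ratio 1.11, 0.55 to 1.72), from 35 and 6 cells. In the OTM-only clusters Serping1 was 678 CPM in c11 and 483 CPM in the proliferating c5, and C1s1 was 142 CPM and 82.3 CPM.

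**Figure D3:**
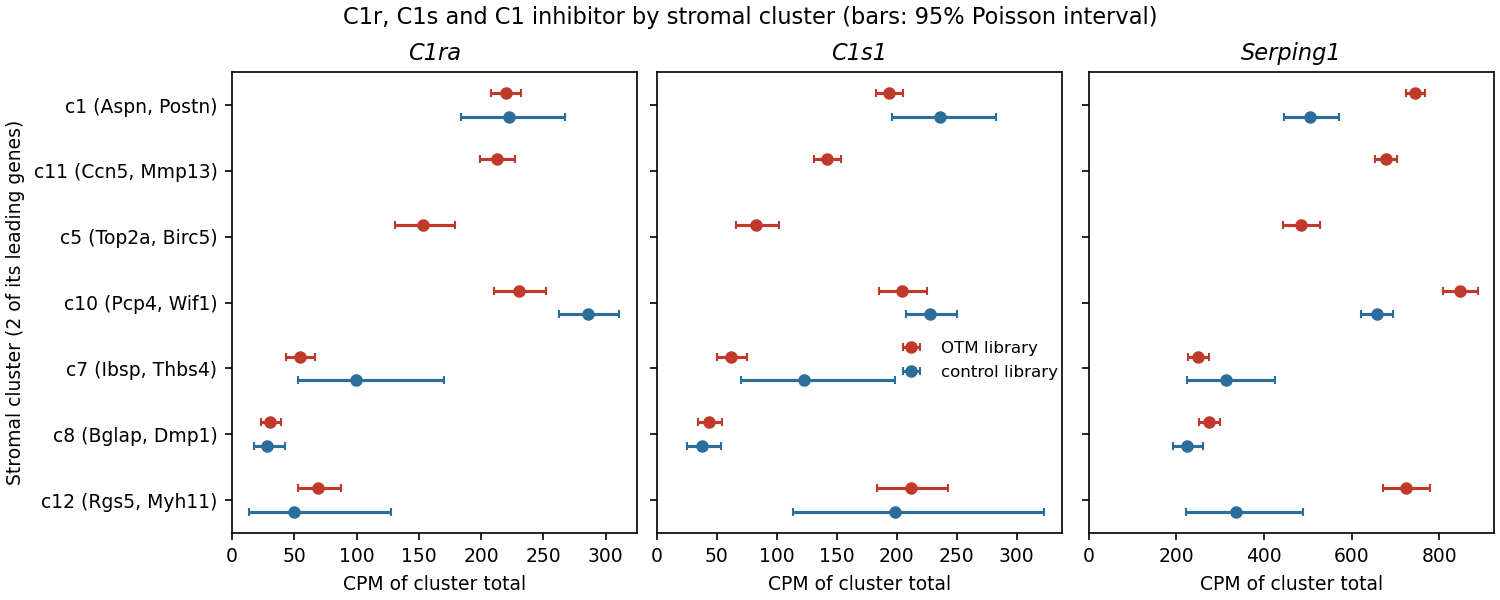
C1ra, C1s1 and Serping1 in each stromal cluster, as CPM of the cluster total with 95% Poisson intervals, OTM (red) above control (blue); c11 and c5 have no control cells. Serping1 lies higher in OTM in c1, c10, c12 and c8 (275 CPM in OTM, 225 CPM in control) and lower in OTM in c7 (249.7 CPM in OTM, 313 CPM in control), with overlapping intervals in c7 and c8.

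C3, the central component on which the activation routes converge, was not mainly a stromal transcript. Neutrophil-like cells had 280.3 CPM in OTM and 305 CPM in control (313 and 117 UMIs; log2 ratio -0.12, -0.43 to 0.20), and 69.6% of these cells in OTM and 72.7% in control had a UMI. Both neutrophil-like clusters carried it. In c14, led by the granule genes Ltf and Ngp, it was 318 CPM in OTM and 319 CPM in control, and in c6, led by Acod1 and Il1b, 237 CPM in OTM and 231 CPM in control. An unnamed cluster, c3, led by granulocyte genes including Elane and Ltf, had 287 CPM in OTM and 364 CPM in control (14 and 5 cells). The monocyte-like m1 had 346 CPM in OTM and 544 CPM in control (-0.66, -1.26 to -0.01), from 18 of 19 and 3 of 4 cells. In both libraries the interval of m1 overlapped those of c3 and c14, so these levels could not be ranked.

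The other macrophage clusters had less C3 than m1. In m0 it was 69.7 CPM in OTM (52 UMIs) and 0 UMIs in control. The 3 control m0 cells held too few UMIs in all for this 0 to show a difference against the floor of 3 UMIs. In m3 it was 60.1 CPM in OTM (20 UMIs) and 0 UMIs in control, at least 3.93-fold higher in OTM against that floor. Over the whole class C3 was 121 CPM in OTM and 73.7 CPM in control (log2 ratio 0.72, 0.17 to 1.31). Without m1 the counts were 74 UMIs in OTM and 3 in control (2.98, 1.38 to 5.30). C1q and C3 therefore separated within one class: within it m1 had the highest C3 and no C1q UMI, and m6 had the highest C1q sum and 2 C3 UMIs in OTM and 3 in control.

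In stromal cells C3 was a minor transcript, with 7.48 CPM in OTM (134 UMIs in 9.41% of cells) and 1.74 CPM in control (6 UMIs in 3.77% of cells). The log2 ratio of OTM over control was 2.10 (0.94 to 3.57), and 5 cells held 35.1% of the OTM UMIs. Stroma held 134 of 957 C3 UMIs in OTM and 6 of 226 in control, where neutrophil-like cells held 32.7% and 51.8%. C3 was lower in stroma than in macrophage or monocyte-like cells, with a log2 ratio of -4.02 in OTM (-4.35 to -3.69) and -5.40 in control (-6.95 to -4.12). Epithelial-like cells had 28.3 CPM in OTM and 45.1 CPM in control. Of the 5 complement genes tested in stroma, C3 and C4b were the 2 more than 2-fold higher in OTM (6.13% of 14169 genes tested were), and 0 were more than 2-fold lower (6.06%). Without c10 C3 had 118 UMIs in OTM and 0 in control, at least 3.65-fold higher in OTM, but C4b no longer passed 2-fold (log2 ratio 0.41, -1.23 to 2.74). Neutrophil marker transcripts in stroma summed to 75.5 CPM in OTM (14 of 15 detected, Ly6g at 0) and 59.2 CPM in control (12 of 15), and their part in stromal C3 was not tested.

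**Figure D4:**
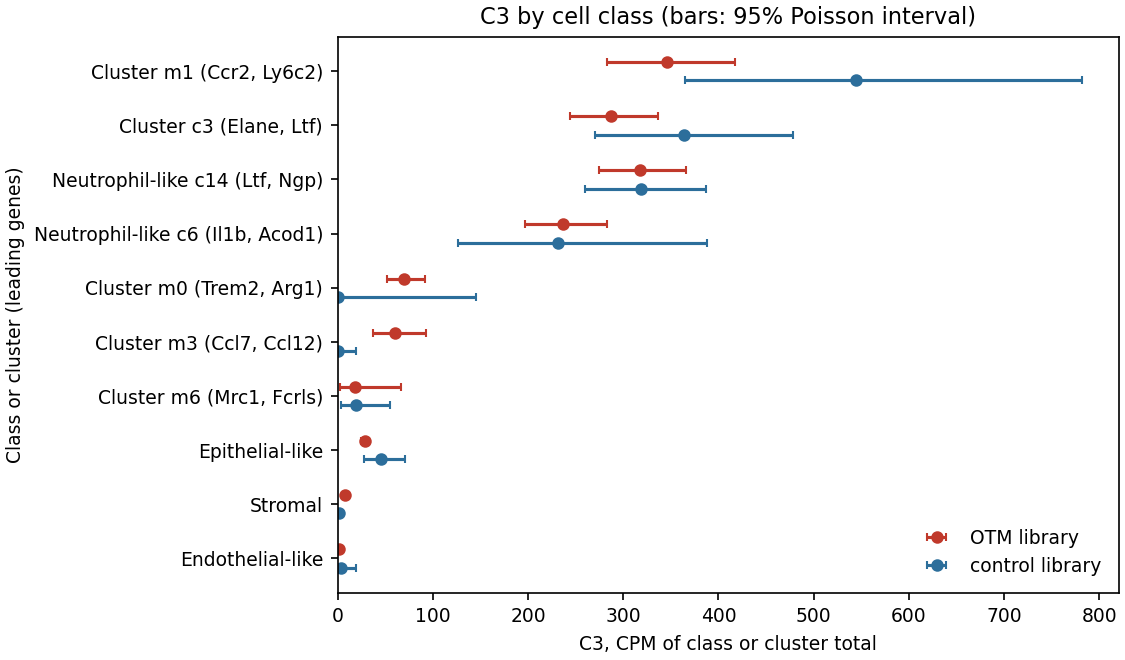
C3 in myeloid clusters and in the epithelial-like, stromal and endothelial-like classes, as CPM of the class or cluster total with 95% Poisson intervals, OTM (red) above control (blue). The 4 top rows lie between 231 and 544 CPM, and the stromal row lies at 7.48 CPM in OTM and 1.74 CPM in control.

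C4b, which encodes C4, the first substrate of C1s, was scarce, with 117 UMIs in OTM and 7 in control. In OTM 48 UMIs were stromal (2.68 CPM) and 16 were in macrophage or monocyte-like cells (10.7 CPM), while in control 3 and 4 were. The stromal log2 ratio of OTM over control was 1.62 (-0.01 to 3.95), and the 3 control UMIs came from 1 mural-like cell. The highest OTM level was in Schwann-like cells, with 171 CPM from 31 UMIs in 10 of 15 cells; the 4 control Schwann-like cells had 0 UMIs, which makes the OTM level at least 3.09-fold higher against the floor of 3 UMIs. Another 21 OTM UMIs lay in an unnamed cluster of low depth (c9). C4b shares most of its sequence with C4a, so its counts are uncertain.

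Summed over C1ra, C1s1, C3, C4b and Serping1, the stromal level was 965 CPM in OTM and 913 CPM in control (log2 ratio 0.08, 0.03 to 0.14). Its direction was not stable: it was -0.47 with each library clustered alone (554 OTM and 40 control stromal cells) and 0.71 without c10. The same sum in macrophage or monocyte-like cells was 156 CPM in OTM and 99.0 CPM in control, which was mostly C3. The log2 ratio of stromal over macrophage or monocyte-like cells was 2.63 in OTM (2.44 to 2.82) and 3.21 in control (2.77 to 3.67).

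Of 48 other complement genes, few had enough UMIs to be compared. Among regulators, 7 of 16 were tested in stroma, of which 1 was more than 2-fold higher in OTM and 1 lower (6.13% and 6.06% of all genes tested were), with a median log2 ratio of -0.15 against 0.01 over all genes tested. Clu, which encodes clusterin, an inhibitor of the membrane attack complex, was the gene past 2-fold lower, at 40.6 CPM in OTM and 82.4 CPM in control (-1.02, -1.22 to -0.82). Csmd1, a membrane regulator that was chosen after its values were seen, was the one past 2-fold higher (1.96, 1.51 to 2.44). Cr1l, the rodent membrane regulator Crry, had 39.0 CPM in OTM and 43.2 CPM in control. The stromal ratios of these other genes, here and below, are for the whole stroma with c10. The part of cluster make-up in them was not tested.

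Of 13 other classical and lectin pathway genes, 3 were tested in stroma and 0 passed 2-fold. Colec12, a collectin-like scavenger receptor, had 471 CPM in OTM and 501 CPM in control, and C2, the partner of C4 in the convertase, had 14.3 CPM in OTM and 16.3 CPM in control. Masp1 had 70 UMIs in OTM and 7 in control (0.94, -0.18 to 2.31). In macrophage or monocyte-like cells Colec12 had 60 UMIs in OTM and 0 in control, at least 5.79-fold higher in OTM, beside the higher fibroblast marker sum given above. Of the 7 terminal pathway genes none reached 20 UMIs in stromal or macrophage or monocyte-like cells of a library. C9 had 10 stromal UMIs in OTM and 3 in control.

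Among 9 other receptors, 7 were tested in macrophage or monocyte-like cells, with 1 more than 2-fold higher in OTM and 1 lower (19.5% and 6.08% of all genes tested were). C5ar1, the receptor for C5a, had 199 CPM in OTM and 410 CPM in control (-1.04, -1.31 to -0.76). In this class it was thus lower in OTM together with C3ar1. Neutrophil-like cells, however, held 797 of its 1218 OTM UMIs and 215 of its 415 control UMIs. There it was higher in OTM, with 714 CPM in OTM and 560 CPM in control (0.35, 0.13 to 0.57). Of 3 alternative pathway genes only Cfp was tested in macrophage or monocyte-like cells. It encodes properdin, the stabiliser of the alternative convertase, and had 214 CPM in OTM and 73.7 CPM in control (1.54, 1.01 to 2.11). Itgax, a chain of complement receptor CR4 that was chosen after its values were seen, was the receptor gene past 2-fold higher (1.95, 0.98 to 3.11). In stroma 2 were tested: Cd93, a receptor-like glycoprotein of endothelial and myeloid cells, had 331 UMIs in OTM and 7 in control (3.18, 2.13 to 4.51), and Lrp1, a large endocytic receptor, had 475 CPM in OTM and 255 CPM in control (0.90, 0.80 to 1.00). Endothelial markers in stroma summed to 159 CPM in OTM (14 of 14 detected) and 149 CPM in control (13 of 14), and their part in the Cd93 difference was not tested.

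The genes most like 4 of the members across 6 classes in both libraries (12 points, Pearson r of log2(CPM + 10)) are given as a description, since the points share libraries and their depth. For C1qa they were Ifnb1, Slamf7, Ms4a6b, Ccr2 and Clec10a (r = 1.00 each after rounding), and r with C1qb was 0.999. Ccr2 was among the leading genes of cluster m1, which had no C1q UMI, and likeness between single cells was not tested. For C3ar1 they were Pf4, Clec10a, Ms4a6b, C1qb and Slamf7 (highest r 0.999). In the other classes compared, C1qa was at most 1.95 CPM and C3ar1 at most 2.61 CPM. The macrophage or monocyte-like points therefore set r for both, and genes confined to that class come out alike. For C1s1 they were H2afy2, Cacna1g, Acadsb, Sgcd and Lima1 (highest r 0.978), and for C3 they were Tmbim6, Pstpip2, Iqgap1, Orai2 and Arpc2 (highest r 0.983). Among the members themselves, r was 0.959 between C1s1 and C1ra, 0.933 between C1s1 and Serping1 and -0.865 between C1s1 and C3.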

How the data were processed

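Both libraries were 10x Genomics 3′ v3.1. The deposited values were UMI counts per gene and barcode, not normalized, made with Cell Ranger 7.0.1 and the builds mm10 and GRCm38 per the submitters' processing notes, which also name Seurat. There were 1539 OTM barcodes with 36010801 UMIs and 369 control barcodes with 5723299 UMIs. Barcodes were kept if they had 200 or more genes and a mitochondrial share of 20% or less, which removed 127 OTM and 21 control barcodes. Cells of both libraries were clustered together in scanpy 1.11.5 (2000 variable genes, 57 complement genes left out, 30 components, 15 neighbours, Leiden resolution 1.0), and mononuclear phagocytes again (1500 genes, 10 components, 10 neighbours, resolution 0.8). Names came from 18 marker lists. Cells that Scrublet called doublets (8 OTM and 2 control cells) were kept.

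UMIs were summed per class and library. Sums have exact Poisson, shares exact Clopper-Pearson and ratios conditional binomial intervals (95%). A fold was counted past 2-fold only with at least 20 UMIs in one of the sums. A ratio against 0 uses a floor of 3 UMIs. No p-value was computed. The scripts were tested on simulated data. The members and lists were chosen with earlier results of these data known. Other complement genes were named as the 3 of each list with the most UMIs over stromal and macrophage or monocyte-like cells (1 of them is not reported here), and genes most alike as the 5 with the highest r among those with at least 100 UMIs. Coordinates are from GENCODE for GRCm38, and promoters from RefSeq.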

Additional observations from a re-analysis of the deposited data

How the results depend on the processing

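No paired analysis was possible because each group is 1 library. The lower C1q sum of macrophage or monocyte-like cells in OTM (log2 ratio -0.73) kept its sign in 12 of 12 alternatives. Leaving out c10 or the OTM-only stromal clusters removed stromal cells only, kept this class at 80 and 35 cells and so could not change the ratio. Among the others it was -0.62 with called doublets removed, -1.47 and -0.81 at resolutions 0.5 and 1.5 times the one used, and -0.61 with each cell classed by its own scores. It was -1.01 with each library clustered alone, -0.53 with cells thinned to 1500 UMIs and clustered again, and -0.58 without m1. C3ar1 (-0.70) moved to -1.28 at the lower resolution and -1.002 with libraries clustered alone.

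The stromal sum (0.08) turned to -0.47 with libraries clustered alone, when 554 OTM and 40 control cells were called stromal, and Serping1 to -0.33; the cause was not tested. It was 0.14 at the higher resolution, 0.77 after thinning, 0.15 as a mean of cells' own CPM and 0.71 without c10. C1ra in stroma turned to 1.18 after thinning and 0.69 without c10, and C1s1 to 0.22 without c10.

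Stromal over macrophage or monocyte-like cells, the 5-gene sum (2.63 in OTM, 3.21 in control) was in OTM 2.92 with no cell filter, 2.11 at the lower resolution, 2.96 with own scores, 1.92 after thinning, 2.25 as a mean and 3.22 without m1. In control it was 5.07 with libraries clustered alone, 2.21 after thinning, 3.80 as a mean, 4.64 without m1 and 2.51 without c10. The C1q sum there was -10.18 in OTM and -8.20 in control after thinning.

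The members more than 2-fold apart in macrophage or monocyte-like cells (0 higher, 0 lower) were 2 higher and 4 lower at the lower resolution and 1 and 3 with libraries clustered alone. 1 was higher after thinning, as a mean and without m1, and 1 higher and 4 lower at 1.5-fold. The share of all genes past the fold was computed for the main setting only, here and in stroma. In stroma (2 higher, 0 lower) 1 was higher with own scores, libraries alone, thinning or without c10. With no minimum of UMIs, 4 were counted as lower, the C1q chains and C3ar1. In OTM and control stroma C1qa had 3 and 3 UMIs, C1qb 5 and 1, C1qc 1 and 1, and C3ar1 3 and 2. The floor of 3 UMIs took C1qb from a log2 ratio of -0.06 to -1.64. So few UMIs cannot show a difference. After thinning, Serping1 was detected in 52.1% of OTM and 47.4% of control stromal cells, and C3 in 30.8% of OTM and 27.3% of control neutrophil-like cells.

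The alternatives without m1, without c10 and without the OTM-only stromal clusters were chosen after the data were seen. The 35 control macrophage or monocyte-like cells limit the ratios that use them. Of the 3 control m0 cells, 1 with 21211 UMIs and 0 C1q UMIs sets the reversed C1q ratio of that cluster.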
